A study of Danio rerio with 8 samples.

Results

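Lens membrane, cytoskeleton and regulator genes were examined in eyes of zebrafish embryos, in 4 libraries labelled *flrt2* mutant and 4 wild-type (WT) libraries. The set held 10 genes chosen by symbol among 37114 rows of the deposited table, each taken from its row on chromosomes 1 to 25 of GRCz11. Those described were the membrane genes *lim2.1*, *lim2.4*, *mipa* and *mipb*, the cytoskeletal genes *bfsp1* and *bfsp2*, and the transcription factor genes *foxe3*, *pitx3* and *hsf4*. All 10 were found, *bfsp1* under its upper-case symbol, and all 10 passed the filter on low values. The filter asked for at least 0.5 FPKM (fragments scaled to gene length and a total per library) in at least 4 of the 8 libraries. The mutant line carried a deletion of 20 bp in *flrt2* made with CRISPR/Cas9, and its founders were bred into the AB background. WT titles start with AB, titles of the mutant group start with CH1359, and the labels do not say whether the WT embryos were siblings of the mutants. According to the methods, heterozygotes were intercrossed to give wild-type, heterozygous and homozygous fish for all phenotypic analyses. For RT-qPCR, the paper states that offspring of inbred homozygotes were used. The parents of the sequenced embryos of either group are not named separately. About 40 eyes at 36 hpf were pooled per library according to the methods, while the labels name retina. Libraries are named by the suffix of their titles, and values per library follow the order 12_16, 1_19, 1_8_ysy and 2_17 for the libraries labelled *flrt2* mutant, and 12_16, 1_19, 1_8_ysy and 1_8 for WT.

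The vertebrate lens grows as epithelial cells at its rim leave the cell cycle, elongate into fibre cells, lose their organelles and fill with crystallins. Fibre membranes are rich in the water channel Mip and the tetraspan protein Lim2. Filensin (Bfsp1) and phakinin (Bfsp2) assemble into beaded filaments, an intermediate filament type of the lens. Foxe3 is a forkhead factor of the lens epithelium, Pitx3 a homeodomain factor of the early lens, and Hsf4 a heat shock factor of the differentiating lens. Variants of the human counterparts of these genes are known from inherited cataract, and zebrafish carry duplicates of several of them, including *mipa* and *mipb*.

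*flrt2*, the targeted gene, was not lower in the libraries that carry its label. It had 2.90, 3.99, 3.80 and 2.80 FPKM in the libraries labelled *flrt2* mutant, against 2.48, 2.33, 2.55 and 2.25 FPKM in WT. All values of the first group lay above those of WT (p = 0.0286 in a two-sided exact permutation test, where 4 against 4 libraries allow no smaller p), while limma gave 0.40 on the log2 scale (adjusted p = 0.110). Directions below therefore rest on the labels. Lens RNA was present in all 8 libraries: summed over 56 crystallin genes, FPKM was 5899 to 8568 in the libraries labelled *flrt2* mutant and 7474 to 10616 in WT. Of the crystallins, 38 were tested, 2 were higher and 7 were lower (5 lower with contig reads, those of second rows of the same genes on alternate contigs, added), against 8.28% and 7.37% over all rows tested. Of the lens connexin genes, *gja3* was listed at 0 in every library, while *gja8a* averaged 8.39 FPKM in the libraries labelled *flrt2* mutant and 7.75 FPKM in WT. Some markers of other tissues were lower. Of 5 tested blood markers, 4 were lower (summed FPKM of 7 genes 460 to 1202, against 1433 to 2255 in WT), led by the globin gene *hbae3* (log2 fold change -1.16, adjusted p = 0.0146 from limma), and 2 of 6 were lower with contig reads. Of 7 tested surface epithelium markers, 2 were lower (summed FPKM of 10 genes 671 to 1565, against 2041 to 2801 in WT), led by the keratin gene *krt4* (-1.24, adjusted p = 0.00651), and with contig reads 1 of 10 was higher and 1 was lower. Periocular mesenchyme markers had 2 of 8 lower (1 with contig reads) and retinal progenitor markers 1 of 9. Over all rows, 15.6% passed the test in either direction. With contig reads added that share was 11.1%, with 1182 higher and 990 lower of 19524. Pigment epithelium markers had 0 of 10 past the test and overlapping sums of 452 to 565 and 401 to 582 FPKM. The part of these tissues in the results on lens genes was not tested, and in whole eyes fewer lens cells cannot be told apart from less RNA per cell.

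As deposited, *lim2.1* was far higher and *mipa* was lower in the libraries labelled *flrt2* mutant, and the other 8 lens genes did not pass the test. The count was 1 higher and 1 lower of 10, at an adjusted p under 0.05 from limma on log2(FPKM + 0.5). Over all 21012 rows tested, 15.6% passed, 8.28% higher and 7.37% lower, so 2 of 10 is close to the share over all rows. Both also had a log2 fold change beyond 1, which together with the test held for 6.94% of all rows. Groups did not overlap for the same 2 genes, 1 in each direction, against 21.1% of all rows, 11.4% higher and 9.76% lower. With the reads of a second row for the same gene counted, 0 of 10 passed, against 11.1% of 19524 rows in that fit. Both genes have such a row on an alternate contig of GRCz11, where the assembly gives another version of a stretch of the chromosome, and the other 8 lens genes have no matching row.

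**Figure D1:**
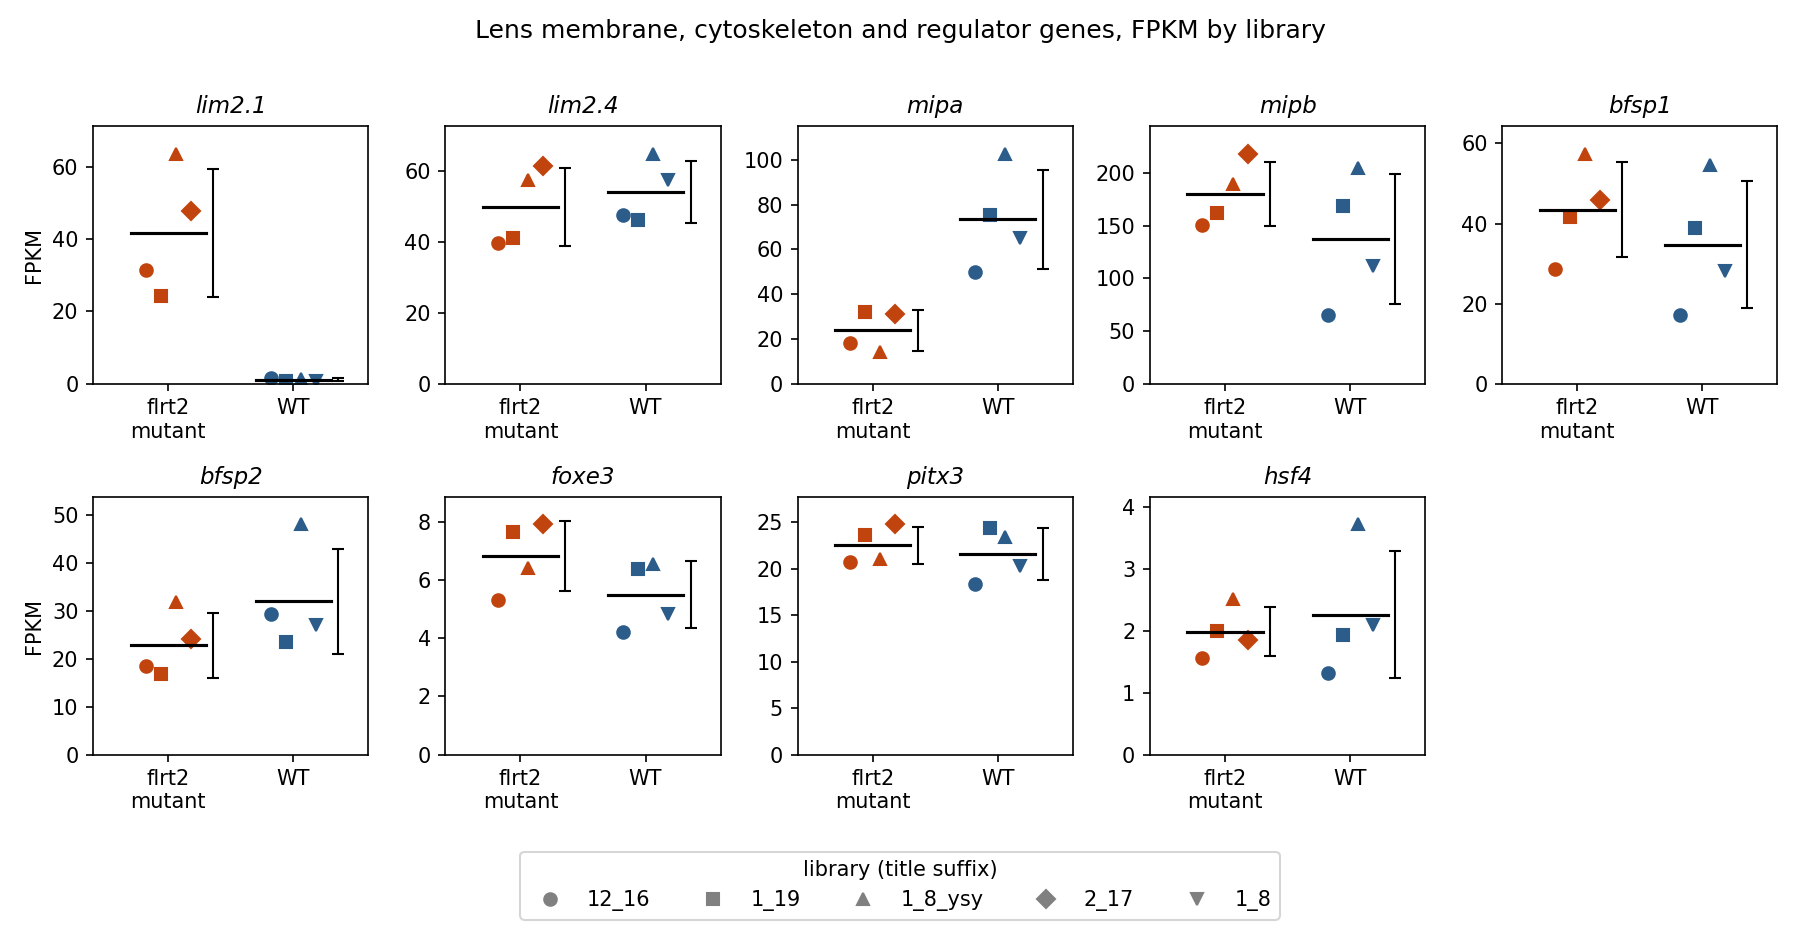
FPKM (y axis, from 0) of 9 lens genes in the 4 libraries labelled *flrt2* mutant (left) and the 4 WT libraries (right), with a symbol for each title suffix, the mean as a line and the SD as a bar. The groups part for *lim2.1* and *mipa*, and overlap for the other 7 genes.

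*lim2.1* encodes a lens fibre membrane protein of the PMP22, EMP, MP20 and claudin family (ENSDARG00000068974, chromosome 10, 29896275 to 29903165, minus strand). Its row held 31.4, 24.2, 63.7 and 47.7 FPKM in the libraries labelled *flrt2* mutant, against 1.70, 0.791, 1.36 and 0.798 FPKM in WT. The WT values rest on 20, 9, 16 and 9 reads, against 333, 269, 653 and 499 reads in the other group. All libraries labelled *flrt2* mutant lay above all WT libraries. The means were 41.7 ± 17.6 and 1.16 ± 0.446 FPKM (SD, n = 4 each), and the log2 fold change was 4.61 (standard error 0.294, 95% interval 3.96 to 5.26, adjusted p = 1.73e-05 from limma).

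The second *lim2.1* row carries the same protein match, lies on the alternate contig of chromosome 10, starts 42070 bp from the gene as the table numbers it, and has no Ensembl annotation. This row runs from 29854205 to 29911270, a wider span than that of the gene, with a listed length of 822 bp against 763 bp. It moved the other way, with 41.0, 48.2, 32.9 and 52.3 FPKM in the libraries labelled *flrt2* mutant and 67.5, 80.7, 100.6 and 90.2 FPKM in WT (log2 fold change -0.96, adjusted p = 0.00314 from limma). In WT nearly all *lim2.1* reads fell on this row. The chromosome row took 41.5%, 31.8%, 64.2% and 45.9% of the reads of both rows in the libraries labelled *flrt2* mutant, against 2.28%, 0.902%, 1.24% and 0.814% in WT. The widest 95% Wilson interval of a single library was 38.2% to 45%, in 12_16 labelled *flrt2* mutant, which covers counting error only. Mean shares were 45.9% ± 13.6 and 1.31% ± 0.674 (SD, n = 4 each). A two-sided exact permutation test gave p = 0.0286, again the lowest it can give. The groups already parted on each row, in opposite directions, so the shares had to part and this p adds no evidence.

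Counted together, the *lim2.1* rows held 75.5, 76.1, 99.2 and 104.0 FPKM in the libraries labelled *flrt2* mutant, against 74.4, 87.8, 109.8 and 98 FPKM in WT, per length of the chromosome row. The groups overlapped. The means of 88.7 ± 15.0 and 92.5 ± 15.0 FPKM (SD, n = 4 each) gave a log2 fold change of -0.06 (95% interval -0.39 to 0.27, adjusted p = 0.840 from limma). Within the pairs of libraries that share a suffix, the log2 difference was 0.02 in 12_16, -0.20 in 1_19 and -0.15 in 1_8_ysy. How reads that match both rows equally were counted is not given in the sources used here, and what places a read on one row or the other was not tested.

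*mipa*, which encodes a lens water channel of the major intrinsic protein family (ENSDARG00000037285, chromosome 23, 27068225 to 27072774, plus strand), showed the mirror image. Its chromosome row held 18.2, 31.9, 14.2 and 31.3 FPKM in the libraries labelled *flrt2* mutant, against 49.8, 75.6, 102.8 and 65.3 FPKM in WT. No library labelled *flrt2* mutant reached the lowest WT value. The means were 23.9 ± 9.05 and 73.4 ± 22.3 FPKM (SD, n = 4 each), and the log2 fold change came to -1.63 (standard error 0.285, 95% interval -2.26 to -1.0, adjusted p = 0.00365 from limma).

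The alternate-contig row of *mipa*, which starts 9908 bp away as numbered in the table, was higher, with 105.7, 104.8, 147.6 and 111.3 FPKM in the libraries labelled *flrt2* mutant, against 23.8, 65.8, 56.6 and 47.6 FPKM in WT (log2 fold change 1.35, adjusted p = 0.00781 from limma). The chromosome row took 14.2%, 22.6%, 8.45% and 21.3% of the reads of both rows in the libraries labelled *flrt2* mutant, against 66.7%, 52.5%, 63.6% and 56.9% in WT. Unlike *lim2.1* in WT, *mipa* drew many reads on both rows in either group. Mean shares were 16.6% ± 6.59 and 59.9% ± 6.44 (SD, n = 4 each). The two-sided exact permutation test gave p = 0.0286, which was again fixed by the opposite parting of the rows and adds no evidence.

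With both rows counted, *mipa* held 128, 141, 168 and 147 FPKM in the libraries labelled *flrt2* mutant, against 74.6, 144, 162 and 115 FPKM in WT. Only WT 12_16 and WT 1_8 lay below the range of the other group. The log2 fold change was 0.29 (95% interval -0.18 to 0.76, adjusted p = 0.429 from limma), of the opposite sign to that of the chromosome row. By suffix it was 0.78 in 12_16, -0.03 in 1_19 and 0.05 in 1_8_ysy, so the largest of these differences lay in the pair with the low value of WT 12_16. These pairs leave out WT 1_8 and 2_17 labelled *flrt2* mutant.

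**Figure D2:**
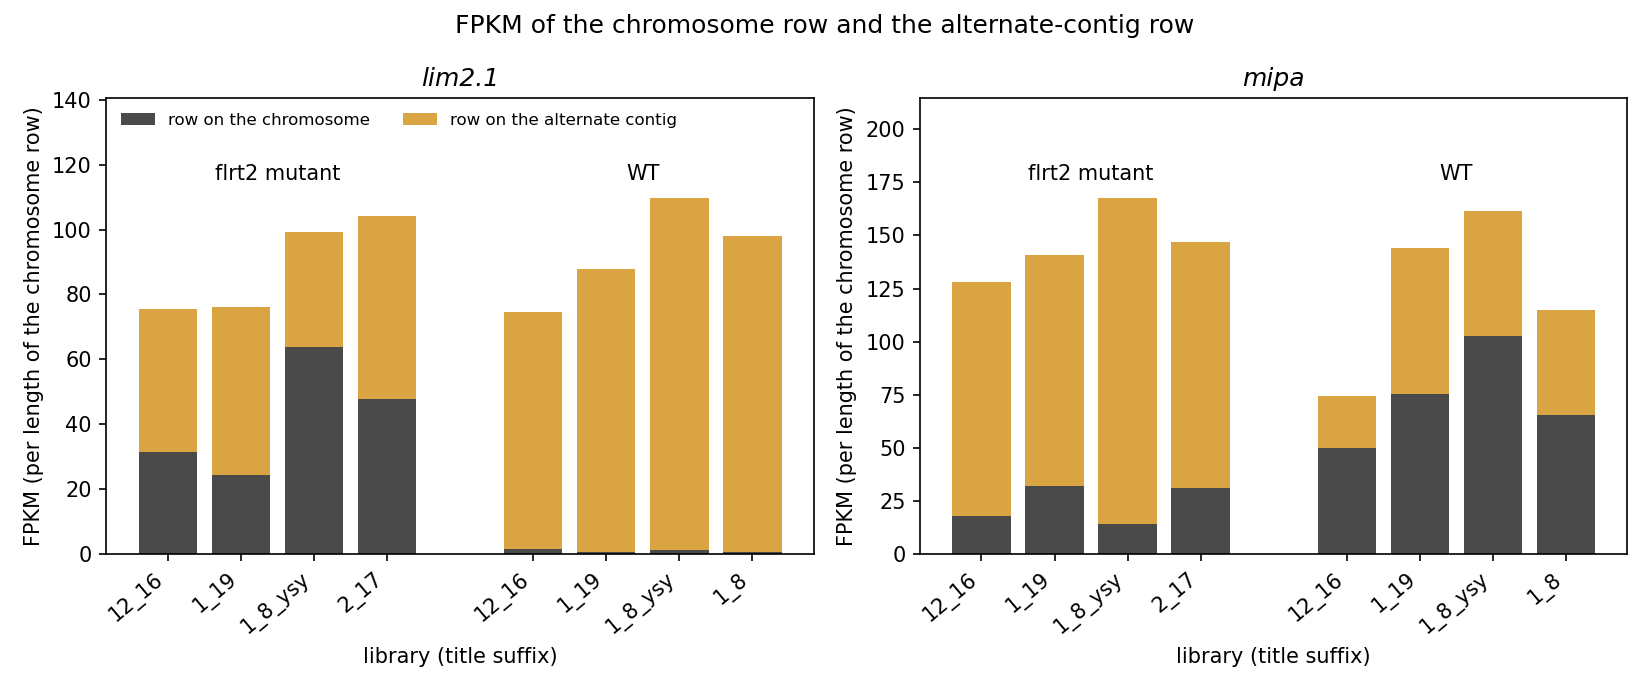
FPKM per library (y axis, per length of the chromosome row) for *lim2.1* (left) and *mipa* (right), stacked from the chromosome row and the alternate-contig row, with the 4 libraries labelled *flrt2* mutant left of the 4 WT libraries. The dark part is nearly absent for *lim2.1* in WT and small for *mipa* in the libraries labelled *flrt2* mutant, while the full bars overlap between the groups.

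Neighbouring rows were read beside both genes. Of the 10 tested rows starting within 250 kb of *lim2.1*, 2 were higher, 0 were lower and 8 did not pass, a share near the 15.6% over all rows. One was *hspa8*, the constitutive Hsp70 chaperone gene, which averaged 80.1 FPKM in the libraries labelled *flrt2* mutant and 3.40 FPKM in WT (log2 fold change 4.34, adjusted p = 2.56e-06 from limma). The other was *zpr1*, a zinc finger protein gene, with 5.58 and 2.75 FPKM (0.96, adjusted p = 0.0459). The same contig carries 3 rows, matched to *hspa8*, *lim2.1* and *bsx*, and in 3 of 3 the row and its gene had opposite signs. For *bsx* neither passed the test, the gene at 0.78 (adjusted p = 0.295 from limma) and its contig row at -0.74 (adjusted p = 0.251). In the fit with contig reads added, *hspa8* stood at 0.23 on the log2 scale (adjusted p = 0.215 from limma), and 0 of the 10 neighbours passed the test. *zpr1* has no row on this contig, and its adjusted p as deposited, 0.0459 from limma, was already close to the threshold of 0.05.

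Around *mipa*, 4 of 6 tested rows were lower and 0 were higher. They were *ptges3a*, an Hsp90 co-chaperone gene (4.04 FPKM in the libraries labelled *flrt2* mutant and 18.0 FPKM in WT, log2 fold change -2.19, adjusted p = 0.00301), *stat6*, a signal transducer gene (0.146 and 0.902 FPKM, -1.13, adjusted p = 0.00165), *zgc:66440* (0.312 and 1.43 FPKM, -1.23, adjusted p = 0.00707), and *rnd1b*, a small GTPase gene named after its values were seen (-0.70, adjusted p = 0.0185), all from limma. *stat6* and *zgc:66440* averaged below 0.5 FPKM in the libraries labelled *flrt2* mutant and above it in WT. They therefore passed the filter on low values mainly through WT, which favours a lower call. In the 4 pairs of gene and contig row with both rows tested, the signs were opposite in 4. The contig row of *zgc:66440* did not itself pass the test (0.29, adjusted p = 0.297 from limma). With contig reads added, *ptges3a* had 0.29 (adjusted p = 0.230 from limma) and *zgc:66440* had -0.23 (adjusted p = 0.495), and neither passed the test. In that fit *rnd1b* was higher (0.74, adjusted p = 0.00554 from limma) and *stat6*, with no matched contig row, was still lower. The alternate contig of *mipa* also carries a tested row matched to no gene, so its reads were added to none. This unmatched row averaged 1.93 FPKM in the libraries labelled *flrt2* mutant and 1.11 FPKM in WT (0.61 in limma, adjusted p = 0.0673). Whether it holds reads of *stat6* was not tested. Around all 10 lens genes, 14 of 83 neighbours passed the test, or 16.9%, near the 15.6% over all rows, with 5 higher and 9 lower.

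**Figure D3:**
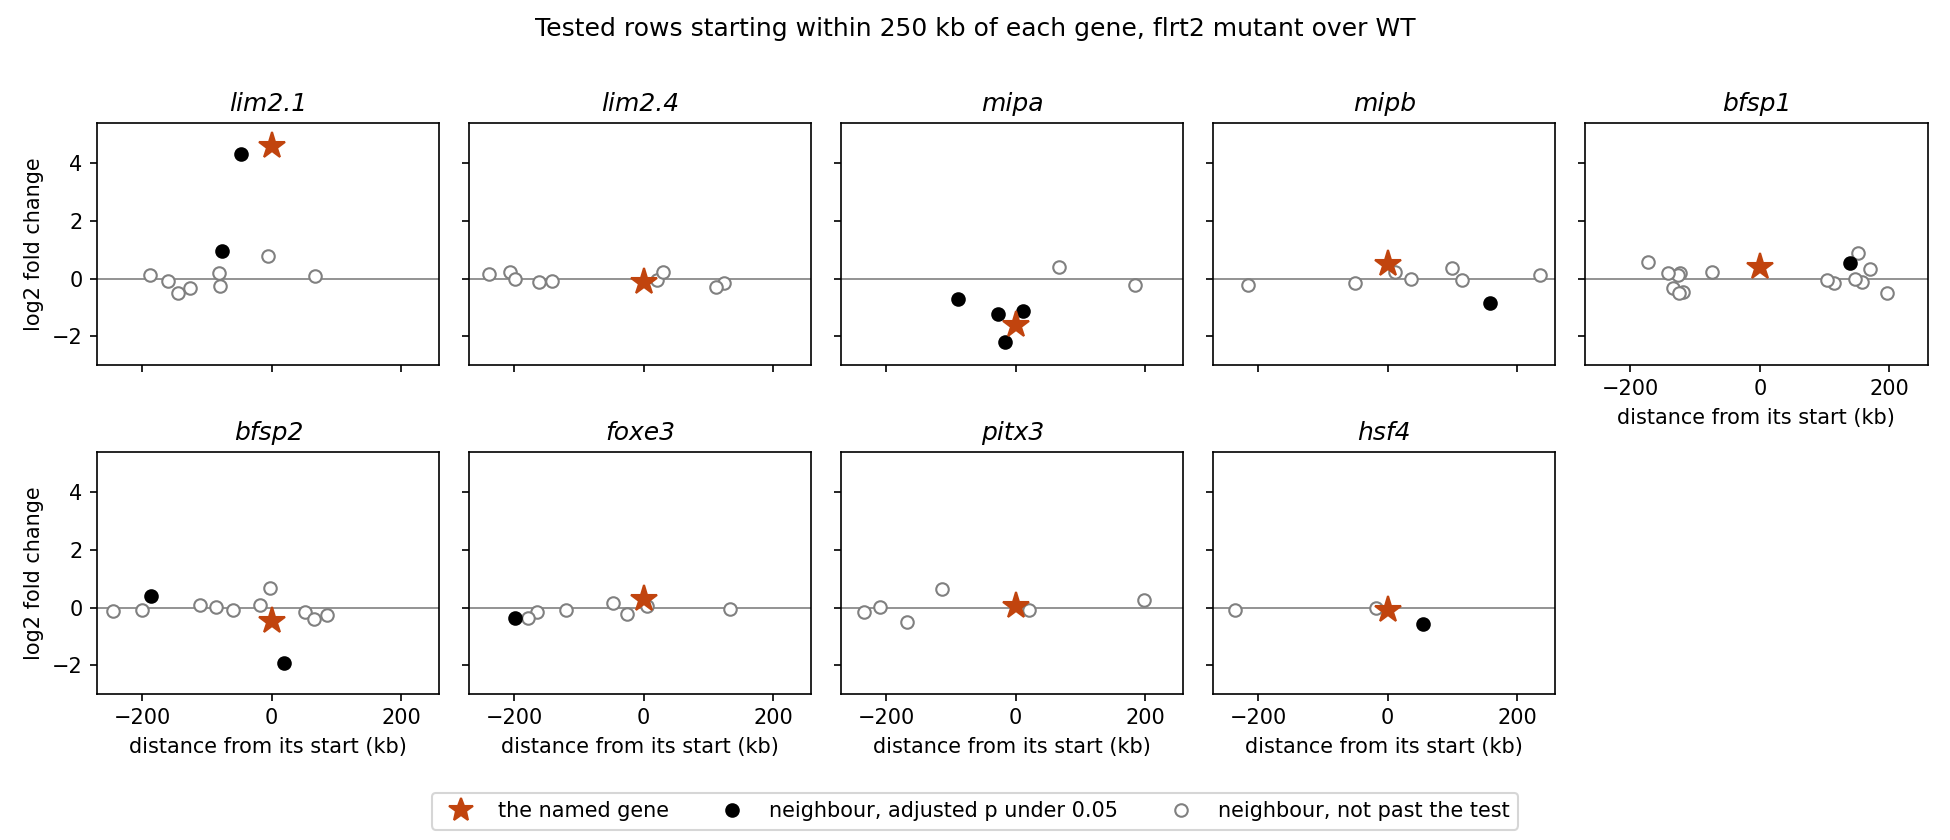
Log2 fold change (y axis, libraries labelled *flrt2* mutant over WT) of tested rows starting within 250 kb of each of 9 lens genes, by distance from the start of the gene in kb (x axis). The star is the lens gene and filled points passed an adjusted p under 0.05; 4 of 6 are filled for *mipa*, all below 0, and 2 of 10 for *lim2.1*, both above 0.

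*lim2.4*, another lens fibre membrane protein gene of the Lim2 family (ENSDARG00000015445, chromosome 19, 10537443 to 10554352, minus strand), held 39.7, 41.1, 57.3 and 61.3 FPKM in the libraries labelled *flrt2* mutant, against 47.5, 46.3, 64.9 and 57.5 FPKM in WT. Of the membrane genes without a second row it had the narrowest interval, with a log2 fold change of -0.13 (95% interval -0.50 to 0.25, adjusted p = 0.669 from limma). The summed *lim2.1* rows kept a near-constant ratio to *lim2.4*, 1.70 to 1.90 in the libraries labelled *flrt2* mutant and 1.57 to 1.90 in WT, whereas the chromosome row alone gave 0.590 to 1.11 and 0.0139 to 0.0358.

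*mipb*, the duplicate of *mipa* and the most abundant of the 10 per length (ENSDARG00000013963, chromosome 23, 6637611 to 6641223, minus strand), held 150, 162, 190 and 219 FPKM in the libraries labelled *flrt2* mutant, against 65.0, 169, 205 and 112 FPKM in WT. WT spanned 3.15-fold and enclosed all but 1 value of the other group. The log2 fold change of 0.50 (95% interval -0.18 to 1.17, adjusted p = 0.313 from limma) did not pass, and was 0.18 without WT 12_16. The ratio of both *mipa* rows to *mipb* was 0.673 to 0.883 in the libraries labelled *flrt2* mutant and 0.789 to 1.15 in WT, and these ranges overlapped.

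The beaded filament genes pointed in opposite directions and neither passed the test. *bfsp1* (ENSDARG00000074919, chromosome 13, 985442 to 992458, minus strand) held 28.8, 41.6, 57.5 and 45.9 FPKM in the libraries labelled *flrt2* mutant, against 17.2, 39.0, 54.6 and 28.3 FPKM in WT, with a log2 fold change of 0.40 (95% interval -0.31 to 1.11, adjusted p = 0.457 from limma). *bfsp2* (ENSDARG00000011998, chromosome 2, 32761130 to 32769759, minus strand) held 18.5, 16.7, 31.8 and 24.2 FPKM in the libraries labelled *flrt2* mutant, against 29.3, 23.4, 48.0 and 27.1 FPKM in WT, with -0.47 (95% interval -1.01 to 0.07, adjusted p = 0.239). Its difference was alike in the 3 suffix pairs, at -0.64, -0.47 and -0.59. With the suffix as a block, which leaves 1_8 and 2_17 without a partner, *bfsp2* passed the test at -0.57 (adjusted p = 0.0277 from limma), but not with 1_8 and 1_8_ysy taken as one suffix (-0.41, adjusted p = 0.231). The ratio of *bfsp1* to *bfsp2* was 1.55 to 2.49 in the libraries labelled *flrt2* mutant and 0.587 to 1.66 in WT.

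The 3 transcription factor genes did not pass the test, and their groups overlapped. *pitx3* (ENSDARG00000070069, chromosome 13, 7555720 to 7575216, minus strand) held 20.7, 23.6, 21.1 and 24.8 FPKM in the libraries labelled *flrt2* mutant, against 18.4, 24.4, 23.4 and 20.3 FPKM in WT. This was the narrowest spread of the 10 genes, with coefficients of variation of 8.81% and 12.9%, and a log2 fold change of 0.06 (95% interval -0.20 to 0.33, adjusted p = 0.768 from limma). The sign of this value turned with equal column sums and with voom (-0.0037 and -0.0014), with the suffix block (-0.0087) and without WT 12_16 (-0.0095). Equal column sums and voom also moved the median over all rows tested, by -0.065 and -0.070, so those sign changes were not particular to *pitx3*.

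*foxe3* (ENSDARG00000062892, chromosome 8, 19668654 to 19670305, plus strand) held 5.31, 7.65, 6.40 and 7.91 FPKM in the libraries labelled *flrt2* mutant, against 4.20, 6.38, 6.55 and 4.83 FPKM in WT. The groups overlapped, and the log2 fold change was 0.29 (95% interval -0.10 to 0.69, adjusted p = 0.309 from limma). *hsf4* (ENSDARG00000013251, chromosome 18, 22739732 to 22753637, minus strand) was the least abundant, with 1.57, 2.0, 2.52 and 1.86 FPKM in the libraries labelled *flrt2* mutant, against 1.32, 1.93, 3.72 and 2.09 FPKM in WT, from 56 to 158 reads per library. Its log2 fold change was -0.10 (95% interval -0.65 to 0.45, adjusted p = 0.837), and 0.13 without WT 1_8_ysy.

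**Figure D4:**
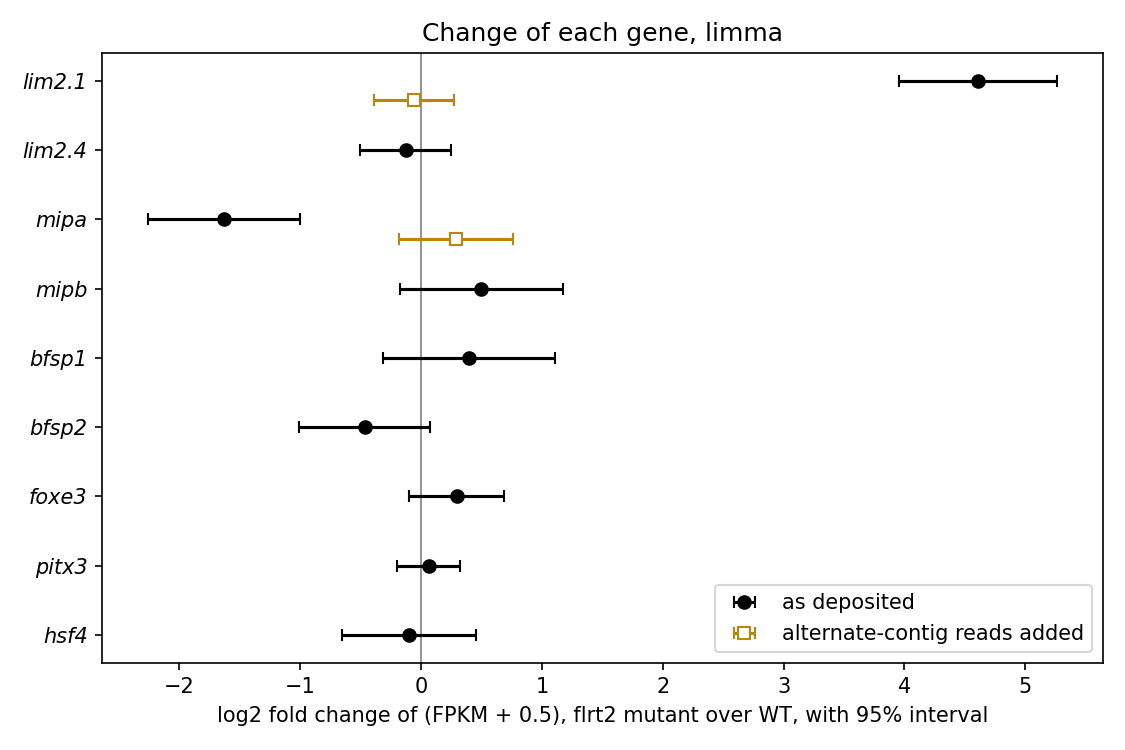
Log2 fold change of FPKM + 0.5 (x axis, libraries labelled *flrt2* mutant over WT, 4 libraries each) with its 95% interval from limma for each of 9 lens genes, and for *lim2.1* and *mipa* also with the reads of the alternate-contig row added (open squares). The intervals of *lim2.1* and *mipa* exclude 0 as deposited and include 0 with those reads added.

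Set in order by level per length in WT, with both rows of *lim2.1* and *mipa* counted, the 9 genes described ran from *mipb* (138 ± 61.7 FPKM) through *mipa* (124 ± 38.0), *lim2.1* (92.5 ± 15.0), *lim2.4* (54.0 ± 8.83), *bfsp1* (34.7 ± 15.9), *bfsp2* (31.9 ± 11), *pitx3* (21.6 ± 2.78) and *foxe3* (5.49 ± 1.16) to *hsf4* (2.27 ± 1.03; SD, n = 4 each). The ranges of neighbours in this order did not overlap between *lim2.1* and *lim2.4*, between *pitx3* and *foxe3*, and between *foxe3* and *hsf4*. The other neighbours in the order overlapped. The median log2 fold change of the 10 genes was 0.18, both as deposited and with contig reads added, against -0.01 and -0.02 over all rows tested.

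Libraries differed across most of these genes at once. With both rows counted, WT 12_16 held the lowest WT value in 8 of the 10 genes and 12_16 labelled *flrt2* mutant the lowest of its group in 9. WT 1_8_ysy held the highest WT value in 9. WT coefficients of variation were 44.8% to 45.9% for *mipb*, *hsf4* and *bfsp1*, the widest of the 10 genes in WT. They were 16.9% to 27.3% for the same genes in the libraries labelled *flrt2* mutant. The reverse held for *lim2.4*, with 22.2% in the libraries labelled *flrt2* mutant and 16.3% in WT. It also held for the chromosome rows of *lim2.1* (42.2% and 38.4%) and *mipa* (37.9% and 30.4%). The crystallin sum shared this order in part. Its highest WT value was also in 1_8_ysy, at 10616 FPKM. The lowest value of each group was not in 12_16, which held 6361 FPKM among the libraries labelled *flrt2* mutant and 7806 FPKM in WT, each above 1_19. Per 1000 FPKM of crystallins, *mipb* had 22.2 to 27.5 FPKM in the libraries labelled *flrt2* mutant and 8.33 to 22.6 FPKM in WT. These ranges still overlapped, as did those of the summed *lim2.1* and *mipa* rows and of the other 6 genes. The divisor was the crystallin sum as deposited, without contig reads, also for the summed rows. For summed *lim2.1* the overlap was narrow, at 11.6 to 12.9 in the libraries labelled *flrt2* mutant and 9.54 to 11.7 in WT.

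Other lens genes passed the test about as often as all rows did. Of 50 genes listed, 48 have a row, 43 were tested, 4 were higher, 2 were lower and 37 did not pass, so 14% passed, against 15.6% over all rows. The median log2 fold change was -0.08. Of 10 tested genes of membrane, junction and adhesion, *efna5a*, an ephrin gene, was higher (0.42 on the log2 scale, adjusted p = 0.0193 from limma, 0.0596 under the suffix block) and *cdh2*, N-cadherin, was lower (-0.59, adjusted p = 0.00184). The Lim2 family genes *lim2.3* (33.6 ± 5.0 FPKM in the libraries labelled *flrt2* mutant and 37.5 ± 6.16 FPKM in WT), *lim2.5* and *lim2.2* did not pass, with -0.15, -0.32 and 0.09.

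Of 10 tested genes of the cytoskeleton and lens cytosol, *nes*, the intermediate filament nestin, was higher (0.52, adjusted p = 0.0119 from limma), and the spectrins *sptan1* (-0.08) and *sptbn1* (-0.05) did not pass. Of 15 tested transcription factors, *six3a*, of the early eye and lens, was higher (0.95, adjusted p = 0.0139) and *six7*, known in zebrafish for cone photoreceptors, was lower (-2.43, adjusted p = 0.00938), while *sox2* (0.18) and *mab21l1* (-0.26) did not pass. Of 8 tested genes of organelle loss, RNA binding and cell cycle exit, *celf1*, an RNA-binding protein gene, was higher (0.63, adjusted p = 0.0132), and *cdkn1ca*, a cell cycle inhibitor, had -0.25 (adjusted p = 0.204). Several of these genes are also expressed in the retina. With contig reads added, *cdh2* (-0.01, adjusted p = 0.956) and *six3a* (-0.13, adjusted p = 0.572) no longer passed, like *lim2.1* and *mipa*, and *efna5a*, *nes*, *celf1* and *six7*, which have no matched row, still did. *sox1a*, below the filter on its own row, was lower when its contig row was counted (-0.80, adjusted p = 0.00771).

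**Figure D5:**
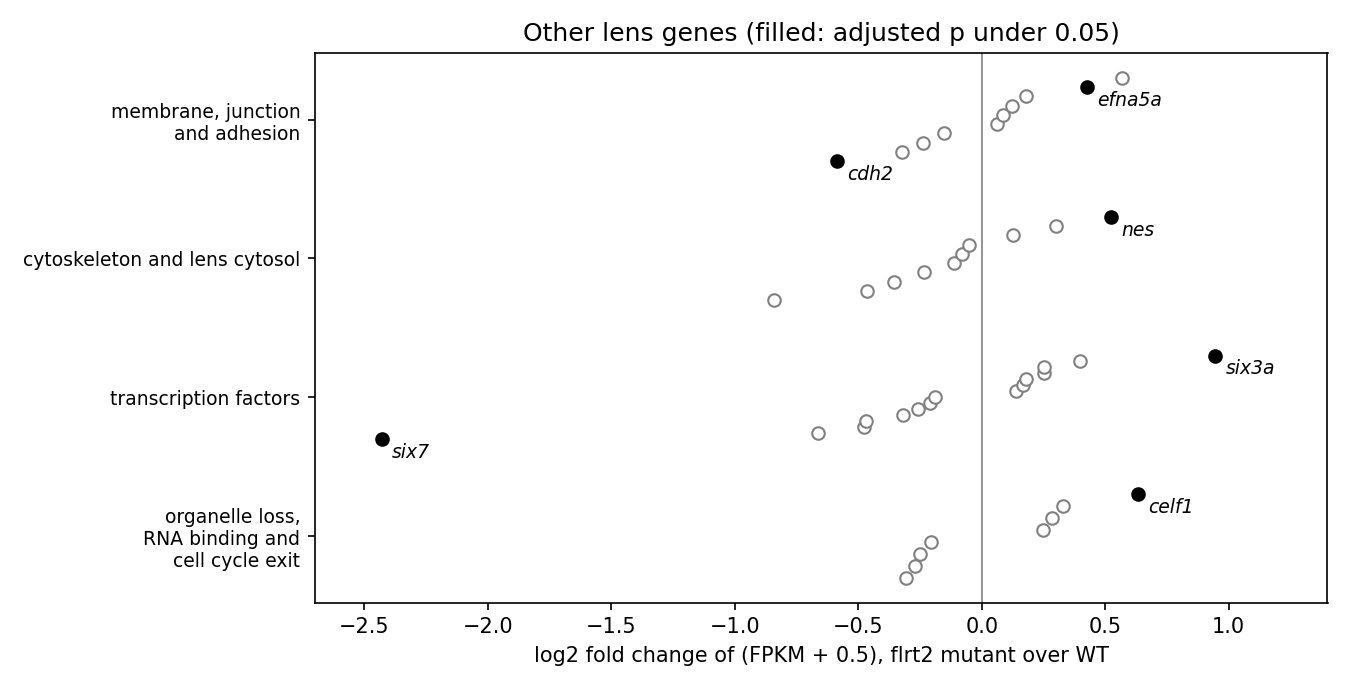
Log2 fold change of FPKM + 0.5 (x axis, libraries labelled *flrt2* mutant over WT) of 43 other lens genes as deposited, in 4 groups by role; filled points passed an adjusted p under 0.05. The 6 filled points are *efna5a*, *nes*, *six3a* and *celf1*, which were higher, and *cdh2* and *six7*, which were lower, of which *cdh2* and *six3a* did not pass with contig reads added.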

How the data were processed

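The authors filtered paired reads, placed them on GRCz11 (HISAT2 2.0.5), assigned them to genes (featureCounts 1.5.0-p3) and deposited a table of FPKM values per gene, the only file used. Read numbers were recovered from FPKM and gene length, and 100% came out whole within 1e-06, at 13423932 to 14835885 reads per library. The library total that FPKM implies was 0.930 (2_17 labelled *flrt2* mutant) to 1.07 (WT 12_16) times the recovered reads. FPKM therefore carries a scaling beyond the read sum, which the sources used here do not describe. Wilson intervals cover counting error only. Chi-square per gene between libraries of one group was 9.79 to 25.1, so none was a repeat of another. Whether libraries came from separate clutches is not stated, so p-values measure the spread between these samples.

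Rows with at least 0.5 FPKM in 4 of 8 libraries were tested on log2(FPKM + 0.5), which understates changes of low values, with limma 3.58.1 (R 4.3.3, trend and robust prior) and Benjamini-Hochberg adjustment over 21012 rows. Figures were drawn in Python 3.11.15 with matplotlib 3.10.9. The limma fit was tested on simulated data. Rows on alternate contigs were assigned to genes by protein match, chromosome number and a distance of up to 0.2 Mb, and their reads were added in an alternative. Other alternatives changed the pseudocount, filter, scaling, prior, threshold and libraries, used voom on recovered reads, or added a block for the title suffix. Deviations from group means correlated at r = 0.141, 0.122 and 0.106 across genes, which are not independent replicates, in the 3 pairs of like suffix. Pairs of unlike suffix ran from -0.223 to 0.107 (1_8_ysy labelled *flrt2* mutant with WT 12_16) and 0.112 (2_17 labelled *flrt2* mutant with WT 1_8_ysy). These values do not clearly set the like pairs apart, and the meaning of the suffix is not given. The suffix was therefore used as a block in an alternative only. The 10 genes and the lists were chosen with earlier results of these data known. Named genes were the members, *flrt2*, list genes past the test and the 2 most abundant of each group, and of the neighbours of called members the 3 with the smallest p. Others named, such as *gja3*, *gja8a*, *lim2.2*, *lim2.5*, *sox1a*, *bsx* and *rnd1b*, fall outside this rule. Counts and medians cover all 10 members, of which 1 is not reported here by name.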

Additional observations from a re-analysis of the deposited data

Results flagged for a closer look

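The alternate-contig row of *mipa* held 148 FPKM in 1_8_ysy labelled *flrt2* mutant, apart from the other 3 libraries of that group at 104.8 to 111.3 FPKM, a gap of 0.849 of the range of the group. It was the only such value among 24 groups of 4 libraries examined for the 10 lens genes and their contig rows, and chance sets apart about 1 group in 20.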

How the results depend on the processing

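Over all rows, 1740 were higher and 1548 lower as deposited. These counts were 1134 and 992 with the replicate block for the title suffix, 1034 and 898 among annotated chromosome rows alone, 755 and 703 with a log2 fold change beyond 1, and 866 and 729 at an adjusted p under 0.01. With contig reads added 1182 were higher and 990 lower. The balance turned with equal column sums, at 1554 higher and 1861 lower, and with voom, at 1502 higher and 1803 lower. Of the 10 lens genes, 0 were higher and 0 lower with contig reads added, with *lim2.1* at -0.061 and *mipa* at 0.29, and 2 were lower with the suffix block, through *bfsp2* at -0.57; the block changed no other call among the 10. *lim2.1* and *mipa* passed in 19 of 20 alternatives each, contig reads being the exception, at 4.38 to 4.84 and -1.80 to -1.41 with a library left out. *pitx3* was -0.0037 with equal column sums, -0.0014 with voom and -0.0087 with the suffix block (-0.0095 to 0.12 with a library left out), and *hsf4* was 0.014 with the joined block (-0.28 to 0.13). Other lens genes had 0 higher with a fold beyond 1 or an adjusted p under 0.01, and 1 lower with a fold beyond 1. Of 83 neighbours, 5 were higher, against 3 with no filter, equal column sums, no trend or robust prior, voom, the suffix block, contig reads added and annotated rows alone, 1 with a fold beyond 1 and 2 at an adjusted p under 0.01. 9 were lower, against 4 with the suffix block, contig reads added or a fold beyond 1 and 3 at an adjusted p under 0.01. With a library left out, neighbours were 3 to 5 higher (3 without 1_19, 1_8_ysy or 2_17 labelled *flrt2* mutant, WT 1_8_ysy or WT 1_8) and 4 to 9 lower (5 without 12_16 or 1_19 and 4 without 1_8_ysy labelled *flrt2* mutant, and 4 without WT 12_16 or WT 1_8_ysy). Where no construction shows it, the cause was not tested.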
